A study of Mus musculus with 12 samples.

Results

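The miR-297, miR-466, miR-467 and miR-669 families are mouse microRNAs (miRNAs) encoded side by side within a single intron of Sfmbt2, a Polycomb gene. They were followed in the quadriceps, a thigh muscle, taken from C57BL/6J mice labelled WT on postnatal day 1 (P1), day 5, day 14 and, in adults, day 90. Each age had 3 libraries, 12 in all. No mouse carried an engineered allele or received a treatment. A miRNA was taken as a member if its name in the count table began with mmu-miR-297, mmu-miR-466, mmu-miR-467 or mmu-miR-669, whichever arm of the hairpin it came from. This gave 80 of the 1966 mature miRNAs in the table, of which 6 were miR-297, 31 miR-466, 13 miR-467 and 30 miR-669.

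A miRNA is cut from one arm (5p or 3p) of a hairpin in a longer transcript and guides an Argonaute protein to messenger RNAs that pair with its seed, the bases near its 5′ end. Hairpins that lie in one intron can be made from one primary transcript, so members of a cluster often rise and fall together, although each hairpin is processed on its own. The Sfmbt2 intron holds a rodent-specific expansion of repeated hairpins rich in alternating CA and UG. Sfmbt2 is imprinted and expressed from the paternal allele in extraembryonic tissue, and the cluster is best known from placenta and early embryonic cells. It is not a marker of muscle.

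In the RefSeq annotation of GRCm38.p6, Sfmbt2 spans chr2:10370440-10595253. Of the 81 RefSeq hairpins that carry the 4 family names, 71 lay within it, between 10466663 and 10518279, a stretch of 51.6 kb. In GENCODE, all 71 were on the plus strand, the strand of Sfmbt2, in intron 10 of the canonical transcript, and 0 overlapped an exon of any transcript. No hairpin with another miRNA name lay within the gene. Names and place did not fully coincide. With hairpins matched to members by name, whichever arm, 66 members had hairpins only within Sfmbt2. Another 5 had copies both there and elsewhere, and 9 had hairpins only on other chromosomes. Each of the 5 may come from only some of the copies that its name covers.

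The mature sequences at hand belonged to 8 of those 9 and are shown because they carry the family motif. They are RefSeq sequences on GRCm38.p6, written 5′ to 3′ with the seed (bases 2 to 8) in capitals.
miR-466i-3p: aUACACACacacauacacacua
miR-466q: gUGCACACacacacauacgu
miR-467f: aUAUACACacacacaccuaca
miR-467g: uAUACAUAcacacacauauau
miR-466j: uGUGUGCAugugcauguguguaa
miR-466k: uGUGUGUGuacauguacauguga
miR-467h: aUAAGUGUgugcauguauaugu
miR-669n: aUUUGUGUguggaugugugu
The first 4 run in CA repeats and the last 4 in UG repeats. Each of the 8 seeds was carried by 1 of these sequences, so a family name did not mark a shared seed among them. These members gave almost no reads in muscle. The highest count of any of the 9 in a library was 5, reached by miR-466k (chr3:85467377-85467498) at P1 and by miR-466q (chr3:28419943-28420018) at P90. miR-466q had 0, 1 and 0 reads at P1, 1, 0 and 0 at P5, 1, 0 and 0 at P14, and 1, 5 and 2 at P90.

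Total counts ranged from 20363495 to 53126984 per library, and muscle miRNAs were present in all 12. The summed share of miR-1a-3p, miR-133a-3p, miR-206-3p, miR-499-5p and miR-486a-5p, 5 markers of muscle, was 29.0% in P1 libraries, 33.6% in P5, 28.0% in P14 and 56.9% in P90. The adult rise was that of miR-1a-3p, from 25.1% at P1 to 54.8%, whereas miR-206-3p went from 2.78% to 0.0415%. Levels are therefore given as CPM normalized by trimmed mean of M values (TMM), which scales libraries to most miRNAs instead of to the few largest, so that normalized CPM have no common sum. The TMM factors were 0.247 to 0.384 at P90 and 1.24 to 1.72 at the other ages. Markers of other sources were mixed. The 5 miR-290 cluster miRNAs, which mark early embryo and placenta, reached at most 23 counts in a library (5 to 23 at P1, 0 to 1 at P90). The liver miRNA miR-122-5p was at 44.2 to 366 normalized CPM at P1, at 5.62 to 8.28 at P14 and at 15 to 47.5 at P90. The 5 blood miRNAs summed to 500 to 698 normalized CPM at P1, to 256 to 329 at P14 and to 491 to 639 at P90. The 3 nerve miRNAs summed to 104 to 207 at P1 and 190 to 222 at P90, and the 2 endothelial ones to 3350 to 4370 and 9660 to 13000. The part of RNA from these sources in the results below was not tested.

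All 80 members together made up a small share of the libraries, and that share fell with age. Summed member counts were 8808, 10721 and 9025 at P1, 6313, 6295 and 8251 at P5, 2281, 2955 and 2045 at P14, and 443, 488 and 547 at P90. The 4 ages did not overlap. The P90 libraries were the deepest in total counts but the smallest in effective size, the total times the TMM factor. That size was 12005231 to 18860160 at P90 and 28613431 to 44258582 at the other ages, so raw counts at P90 were also lowered by it. As a percentage of all counts this was 0.0337 to 0.0421 at P1 and 0.000919 to 0.00113 at P90. Summed normalized CPM were 231.9 ± 16.3 in P1 muscle, 166.3 ± 18.2 in P5, 69.0 ± 5.43 in P14 and 32.6 ± 11.2 in P90 (SD, n = 3 each). The adult sum was thus 7.11-fold below that at P1 after TMM normalization. It was 36.0-fold below without it, from 366.2 ± 47.4 to 10.2 ± 1.03 raw CPM (SD, n = 3). With RLE and upper-quartile factors, 2 other scalings added for the sums after the data were seen, it was 5.64-fold and 1.96-fold below. The P90 versus P1 direction was thus kept under all 4 scalings while its size was not, and from P14 to P90 the sum rose with upper-quartile factors, from 58.3 ± 4.54 to 80.4 ± 19.99 (SD, n = 3). Here as for every member, less miRNA per cell and fewer cells that make it cannot be told apart in whole muscle.

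**Figure D1:**
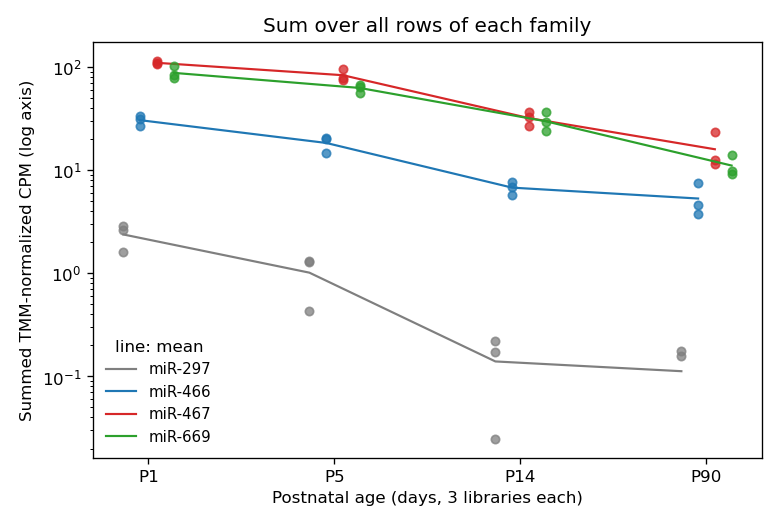
TMM-normalized CPM summed over all rows of each family (log axis) against postnatal age, with 1 point per library and lines through the means of 3 libraries. miR-467 and miR-669 lie above miR-466 and miR-297 at every age, and every family is lower at P90 than at P1, as it is under the 3 other scalings. One P90 library had 0 miR-297 counts and has no point.

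The 4 families were unequal in abundance. At P1, miR-467 summed to 110.5 ± 3.25 normalized CPM (47.7% of the member sum), miR-669 to 88.3 ± 12.7 (38.1%), miR-466 to 30.7 ± 3.31 (13.2%) and miR-297 to 2.39 ± 0.674 (SD, n = 3). miR-297 counts were 109, 115 and 68 at P1, 52, 18 and 57 at P5, 8, 1 and 5 at P14, and 3, 3 and 0 at P90, the last at or under the floor of 3 counts used here for detection. The other families fell 5.76-fold (miR-466), 6.90-fold (miR-467) and 7.93-fold (miR-669) from P1 to P90 on the TMM-normalized scale, and 1.59-fold, 1.91-fold and 2.18-fold with upper-quartile factors. At P14, miR-466 stood 4.51-fold and miR-669 2.95-fold below P1 on the TMM-normalized scale.

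Most members were rare. Of the 80, 12 had no read in any library, 28 (these included) never exceeded 3 counts, 13 reached 4 to 9, 39 reached 10 or more, and 2 exceeded 1000, miR-467e-5p and miR-669c-5p. After the filter on low counts, 34 members were tested, 4 miR-297, 9 miR-466, 7 miR-467 and 14 miR-669, of which 33 had hairpins only within Sfmbt2. The exception was miR-297a-3p, whose name covers 4 hairpins there and elsewhere. The 46 members not tested added 1 to 119 counts to a library. The filter keeps a miRNA that is high at 1 age only, so counts over the 34 describe those that passed and not the cluster as a whole.

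The most abundant member was miR-467e-5p, with a single hairpin at chr2:10505721-10505807. It gave 2310, 2475 and 2370 reads at P1, 1236, 1776 and 2222 at P5, 316, 331 and 170 at P14, and 72, 114 and 146 at P90. Its level was 58.2 ± 2.55 normalized CPM at P1 and 41.5 ± 9.34 at P5, then 7.60 ± 1.46 at P14 and 7.50 ± 4.14 at P90 (SD, n = 3). Every P14 library lay below every P5 library, and the P14 and P90 libraries overlapped. It supplied 25.1% of all member reads at P1 and P5, 11.2% at P14 and 22.5% at P90.

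By the mean over all 12 libraries, miR-669c-5p and miR-467d-5p came next, although miR-669a-3p was above miR-467d-5p at P1. The hairpins of miR-669c-5p and miR-467d-5p lie close by at chr2:10509296-10509404 and chr2:10507630-10507714. miR-669c-5p had 886, 1442 and 1164 reads at P1, 896, 864 and 1000 at P5, 489, 691 and 634 at P14, and 62, 51 and 32 at P90. miR-467d-5p had 564, 616 and 656 reads at P1, 585, 453 and 647 at P5, 350, 584 and 425 at P14, and 66, 33 and 36 at P90. At P14, miR-467d-5p was at 86.8% and miR-669c-5p at 62.3% of the P1 level, and miR-467e-5p at 13%. miR-669c-5p was at 28.2 ± 4.92, 22.1 ± 1.19, 17.6 ± 4.37 and 3.02 ± 0.579 normalized CPM at the 4 ages, and miR-467d-5p at 14.9 ± 0.704, 13.5 ± 2.28, 13.0 ± 2.89 and 2.89 ± 1.09 (SD, n = 3). Together with miR-467e-5p and miR-467c-5p, they made up 50% of member reads at P1 and 61.5% at P14.

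The remaining abundant members lay at 17.8 normalized CPM or less in newborn muscle. miR-467a-5p had 581, 639 and 535 reads at P1, 490, 367 and 449 at P5, 286, 288 and 75 at P14, and 30, 40 and 43 at P90. The third of its P14 libraries stood well below the other two, and its SD at that age was 2.84 on a mean of 5.86 normalized CPM. miR-467c-5p showed the same P14 library low, with 182, 238 and 71 reads, after 533, 593 and 667 at P1 and 375, 500 and 742 at P5, and had 7, 13 and 30 at P90. miR-669o-5p, in contrast, had most reads there, with 54, 69 and 113 at P14.

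Of the miR-466 family, the highest member was miR-466b-3p, made from 8 hairpins in the intron. It had 463, 549 and 439 reads at P1, 316, 210 and 336 at P5, 78, 117 and 76 at P14, and 29, 23 and 38 at P90. miR-466d-3p, from 1 hairpin, had 254, 280 and 238 reads at P1, 153, 169 and 182 at P5, 32, 54 and 45 at P14, and 23, 17 and 10 at P90. The P1, P5 and P14 libraries of both were apart from each other on the normalized scale, and the P14 and P90 libraries overlapped. miR-466c-3p, miR-466p-3p, miR-466e-3p and miR-466a-3p ran at 1.44 to 4.39 normalized CPM at P1 and at 0.208 to 0.835 at P90.

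**Figure D2:**
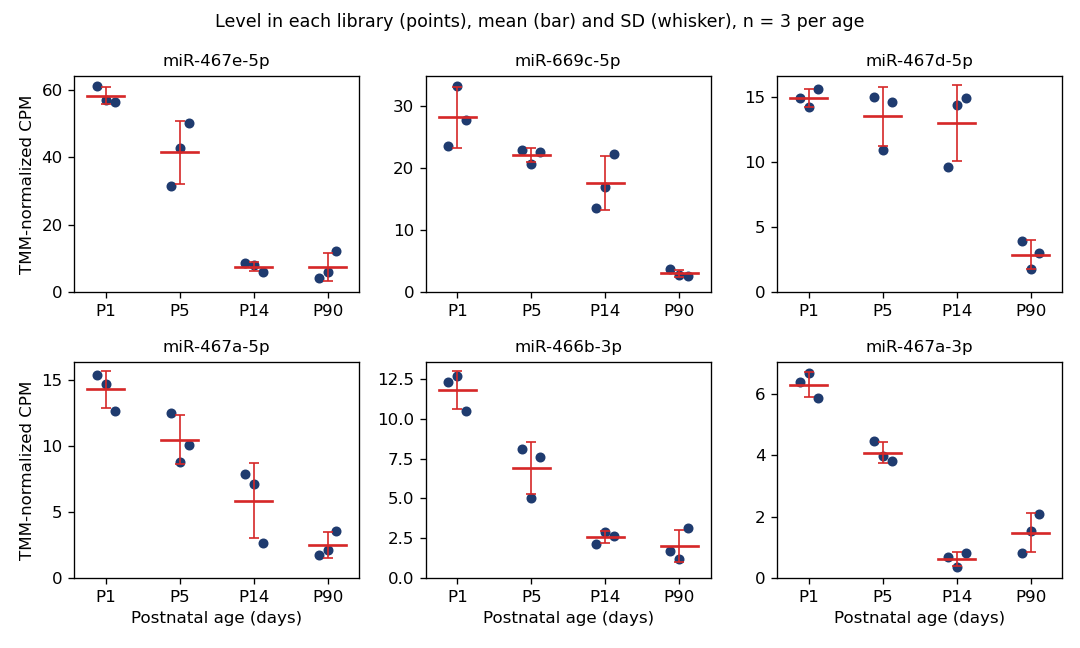
TMM-normalized CPM of 6 members in each library against postnatal age, with the mean (bar) and SD (whisker) of 3 libraries. miR-467e-5p drops from 41.5 to 7.60 between P5 and P14, while miR-669c-5p goes from 22.1 to 17.6 and miR-467d-5p from 13.5 to 13.0, and both drop by P90. miR-467a-3p is lowest at P14.

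Muscle of these ages was sequenced to learn which miRNAs altered in Mbnl1 knockout muscle take part in muscle development. Across the 4 ages, 29 of the 34 tested members changed (edgeR quasi-likelihood test, Benjamini-Hochberg adjusted over all 809 miRNAs tested), where 72.4% of all tested miRNAs did. The 29 were 3 of 4 miR-297, 7 of 9 miR-466, 7 of 7 miR-467 and 12 of 14 miR-669. Their direction was mostly downward. For 24 of the 34, the test was passed and the fitted mean was lower at every successive age, against 16.7% of all miRNAs tested. This count rested on the P14 to P90 step and so on the scaling. It was 20 with RLE factors, 29 with library totals and 7 with upper-quartile factors, against 14.2%, 30.5% and 7.42% of all miRNAs tested, scalings run on this count after the data were seen.

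The first days after birth brought small decreases that seldom passed the test. Between P1 and P5, 1 of 34 members was called lower and 0 higher. Of all tested miRNAs, 4.45% were called, 1.73% lower and 2.72% higher. At an unadjusted p under 0.05 there were 5, all lower. The member called was miR-669a-3p, with 668, 957 and 573 reads at P1 and 381, 249 and 327 at P5. Its levels were 17.8 ± 4.22 and 7.70 ± 1.91 normalized CPM (SD, n = 3), with no overlap between the ages. The log2 fold change was -1.21 ± 0.29 (SE, edgeR adjusted p = 0.0284). The call did not survive the removal of replicate 1 or 2 of P1, or of replicate 2 or 3 of P5. Its direction was kept under all 23 settings tried. The median log2 fold change over the 34 was -0.64 and that over all tested miRNAs 0.0067, and 32 of 34 estimates were below 0.

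Between P5 and P14 the members fell widely. Here 24 of 34 members were called lower and 0 higher. Of all tested miRNAs, 44.4% were called, 26.3% lower and 18% higher. The 24 members were 3 of 4 miR-297, 6 of 9 miR-466, 4 of 7 miR-467 and 11 of 14 miR-669. The median log2 fold change was -1.64, against -0.067 for all tested miRNAs, and all 34 estimates were below 0. Without P14 replicate 2, 15 were called.

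The member with the smallest adjusted p was miR-467e-5p, which fell 5.45-fold (log2 fold change -2.45 ± 0.31, SE, edgeR adjusted p = 1.07e-05). It was followed by miR-467a-3p, which comes from 10 hairpins in the intron. Its reads went from 175, 166 and 169 at P5 to 25, 15 and 23 at P14, a 6.64-fold fall (log2 fold change -2.73 ± 0.35, SE, edgeR adjusted p = 1.29e-05). The other abundant members fell less. miR-669a-5p fell 3.39-fold (edgeR adjusted p = 0.000315), from 431, 424 and 519 reads to 148, 110 and 83. miR-669a-3p, the opposite arm of hairpins with the same name, fell 3.16-fold, and miR-466d-3p (chr2:10511967-10512062) fell 3.20-fold (edgeR adjusted p = 0.000331 and 0.000154). miR-669l-5p (chr2:10468971-10469068) fell 3.46-fold, miR-467c-5p (chr2:10473931-10474027) 2.86-fold, miR-669o-5p (chr2:10514300-10514395) 2.84-fold and miR-466b-3p 2.69-fold (edgeR adjusted p from 0.00105 to 0.00747). The call of miR-467c-5p was lost with a GC trend removed. In each of these members, the P5 and P14 libraries did not overlap.

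A low member went to 0. miR-466n-3p (chr2:10513741-10513834) had 53, 55 and 72 reads at P1, 25, 21 and 36 at P5, 0 in each P14 library, and 4, 1 and 2 at P90. Against the floor of 3 counts per library, its P14 level was at least 7.49-fold lower than at P5 (edgeR adjusted p = 5.59e-05). For the miR-297 members, the P14 counts were 5, 0 and 1 for miR-297a-3p, 0, 0 and 1 for miR-297b-3p and 1, 0 and 0 for miR-297b-5p, all 3 called lower. The call for miR-297b-5p was the least stable, lost under 15 of 22 alternatives, and its P5 counts were 11, 1 and 12.

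Among the 10 members not called at this step were miR-467d-5p and miR-669c-5p. The log2 fold change of miR-467d-5p was -0.06 ± 0.25 and that of miR-669c-5p -0.33 ± 0.21 (SE, edgeR adjusted p = 0.869 and 0.219), and in both the P5 and P14 libraries overlapped. Over the 23 alternatives the estimates ranged from -0.17 to 0.23 and from -0.53 to -0.0090. Neither member was called under any of them. Each had at least 350 reads in every P5 and P14 library. The row named for the opposite arm of the miR-467d hairpin was called lower. miR-467d-3p, looked at after its values were seen, had 19, 21 and 23 reads at P1, 14, 8 and 16 at P5, 3, 0 and 2 at P14, and 2, 3 and 1 at P90. Its P14 counts were at or under the floor, and its level was at least 3.49-fold lower than at P5 (edgeR adjusted p = 0.0317). The difference between the 2 arms was not tested. The row of miR-467a-3p, from 10 hairpins, had 175, 166 and 169 reads at P5 and 25, 15 and 23 at P14. Whether miR-467d-3p shares reads with it was not tested either, so the miR-467d-3p row may not stand for 1 hairpin.

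**Figure D3:**
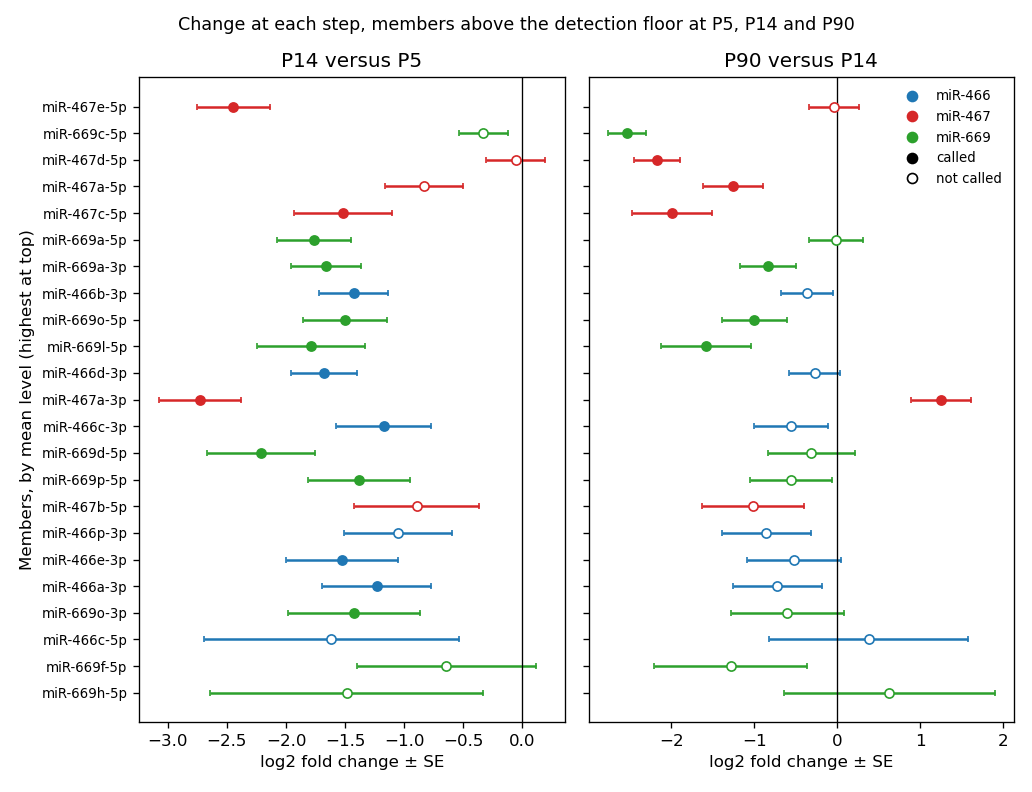
Log2 fold change with its SE for P14 versus P5 (left) and P90 versus P14 (right), for the 23 tested members above the detection floor at P5, P14 and P90, ordered by mean level. Filled points passed the edgeR test at an adjusted p under 0.05. On the left, miR-669c-5p and miR-467d-5p lie near 0 while miR-467e-5p is at -2.45, and on the right their order is turned round.

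Between P14 and P90 the members' changes were mixed under TMM. Of 34, 9 were called lower and 2 higher. Of all tested miRNAs, 59.1% were called, 36.7% lower and 22.4% higher. The median log2 fold change was -0.66, close to the -0.55 of all tested miRNAs. Direction at this step depended on the scaling, which set the median of all tested miRNAs anywhere from -2.77 (library totals alone) to 0.99 (upper-quartile factors). With library totals 26 members were called lower and 1 higher, against 77.6% and 2.22% of all tested miRNAs. With upper-quartile factors 1 was called lower and 9 higher, against 19.7% and 47.2%. Relative to the median of all tested miRNAs, the members' median differed by -0.11 log2 units, and by -0.12 to -0.091 under the 3 other scalings. With the GC trend described below removed, it differed by -0.98, and 29 of 34 estimates were below 0.

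The smallest adjusted p at this step were those of miR-669c-5p and miR-467d-5p, neither of which was called between P5 and P14. miR-669c-5p fell 5.79-fold (log2 fold change -2.53 ± 0.23) and miR-467d-5p fell 4.5-fold (-2.17 ± 0.28, SE, edgeR adjusted p = 9.82e-08 and 5.05e-06). The P14 and P90 libraries of both were apart. The fall of miR-669c-5p was called under all 23 alternatives, and that of miR-467d-5p was lost only with upper-quartile factors, at -0.60. miR-467c-5p fell 3.97-fold and miR-467a-5p 2.4-fold (edgeR adjusted p = 0.00226 and 0.00738), with overlap between the libraries of the 2 ages in both. In contrast, miR-467e-5p and miR-669a-5p had log2 fold changes of -0.04 ± 0.30 and -0.02 ± 0.33 (SE, edgeR adjusted p = 0.933 and 0.973).

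The 2 members called higher at P90 than at P14 were miR-467a-3p and miR-466n-3p. Reads of miR-467a-3p were 25, 15 and 23 at P14 and 14, 29 and 25 at P90, or 0.621 ± 0.225 and 1.48 ± 0.627 normalized CPM (SD, n = 3). The log2 fold change was 1.25 ± 0.37 (SE, edgeR adjusted p = 0.00826). With library totals alone it was -1.01, so the direction of this difference rested on the scaling, and the call was lost when a GC trend was removed (0.65, edgeR adjusted p = 0.126). For miR-466n-3p, both ages averaged at or under the floor, and no fold change is given. Under TMM, both members were called lower at P90 than at P1 (edgeR adjusted p = 4.86e-05 and 0.000652). Over the alternatives their log2 fold changes P90 versus P1 reached -0.24 and -1.39 at the highest. Both calls were lost with upper-quartile factors.

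Over the whole interval, from P1 to P90, 30 of 34 members were called lower and 0 higher. Of all tested miRNAs, 66.4% were called, 41.2% lower and 25.2% higher. The median log2 fold change was -2.84, or -2.53 with the members at or under the floor at P90 set to their bounds, against -0.72 for all tested miRNAs. The members' median minus that of all tested miRNAs was -2.13 log2 units, and -2.14 to -2.12 under the 3 other scalings. All 34 lay below that median with each of the 4 scalings. With upper-quartile factors, under which the median of all tested miRNAs was above 0, 31 of 34 estimates were below 0. Then 12 were called, all lower, where 23.7% of all tested miRNAs were called lower.

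The members with the smallest adjusted p were miR-669c-5p, 9.29-fold lower (log2 fold change -3.22 ± 0.24), and miR-669a-3p, 13.0-fold lower (-3.70 ± 0.34, SE, edgeR adjusted p = 4.45e-09 and 7.41e-08). miR-467c-5p was 12.9-fold lower, miR-669l-5p 10.4-fold and miR-467e-5p 7.86-fold. miR-669b-5p (chr2:10467790-10467886) had 61, 54 and 49 reads at P1 and 0 in each P90 library, at least 6.86-fold lower. miR-297b-3p and miR-297c-3p, with 12 to 32 reads per P1 library, also had 0 at P90, at least 2.64-fold and 2.92-fold lower. The 4 members not called were miR-466c-5p, miR-297b-5p, miR-467d-3p and miR-669h-5p, all with fewer than 50 reads in any library. miR-466c-5p had 19, 22 and 18 reads at P1 and 0, 2 and 10 at P90.

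The arm that was kept differed by family. In miR-467, the 5p arm had more reads in 5 of 5 names with at least 100 reads in all, and it held 94.5% of the family's arm-assigned reads. In miR-669, it had more in 11 of 11 names and held 81.9%. In miR-466, the 3p arm had more in 8 of 8 names and the 5p arm held 4.53%, and in miR-297 the 3p arm had more in 2 of 2 names. Most names were strongly one-sided, such as miR-467e with 13538 reads from the 5p arm and 16 from the 3p arm. miR-669a was nearly even, with 3569 and 3478 reads.

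The balance of arms also moved with age. 3p reads were 25.6% of member reads in newborn muscle (P1), 18.9% by P5, 14.3% by P14 and 25% in the adult. Shares here are of reads pooled over the 3 libraries of an age. For miR-467a, the 5p share was 69.3%, 71.9%, 91.2% and 62.4%. Its 5p and 3p reads in the P14 libraries were 286 and 25, 288 and 15, and 75 and 23. The third P14 library thus had a lower 5p share than the others. For miR-669f (chr2:10467229-10467349), the 5p share was 46.0%, 51.0%, 93.3% and 55.6%, the last on 9 reads. For miR-669a, the 5p share went from 43.8% at P1 to 58.9% at P5 and 69.3% at P90. At P14, 13 of 16 tested 3p members and 11 of 18 tested 5p members were called lower than at P5, with median log2 fold changes of -1.66 and -1.57. Between P14 and P90, 1 of 16 and 8 of 18 were called lower, with medians of -0.54 and -1.14. Of all tested miRNAs, 26.3% and 36.7% were called lower at these steps, and the direction of the later step depended on the scaling. No test was made between arms. In the GC values used below, the 5p arm was higher than the 3p arm for miR-467a and miR-669a, and lower for miR-669f. The part of GC in these shares was not tested.

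GC content moved with age as well. Within a library, the deviation of a miRNA from its mean over all 12 changed by 0.349 to 0.522 log2 units per 10 percentage points of GC at P14, by -0.0615 to 0.0176 at P1 and P5, and by -0.42 to -0.242 at P90. The tested members had a median GC of 39.9%, against 48.3% over all tested miRNAs, members included. For the members it was taken from the hairpin, and for other miRNAs from the mature sequence where that was at hand. The 2 medians are thus unlike measures, and the trend was fitted and removed with the same mix. With this trend removed, 16 members were called lower at P14 than at P5 (median -1.12) and 13 lower at P90 than at P14 (median -1.32), against 25.1% and 34.7% of all tested miRNAs. The order of the medians of the 2 steps was thus turned round, and the P14 versus P5 call of miR-467c-5p was lost (log2 fold change -0.90, edgeR adjusted p = 0.095). The P90 versus P1 count was 31. miR-467d-5p and miR-669c-5p were then still not called between P5 and P14 and still called lower at P90 than at P14.

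Some rows cannot be told apart by their reads. The study's own naming joins 12 of the tested rows into 5 groups of identical mature sequence. In the 4 miR-466 and miR-669 groups the reads divided about as the hairpins listed in GENCODE did. The 3p arms of miR-466b, miR-466c and miR-466p, with 8, 3 and 1 hairpins, held 65.4%, 25.3% and 9.28% of their group's 4086 reads. RefSeq lists 2 hairpins for miR-466c, not 3. miR-669a-5p and miR-669p-5p, with 12 and 2 hairpins, held 86.2% and 13.8%. miR-669a-3p and miR-669o-3p, with 12 and 1 by name, held 91.4% and 8.62%. Of these 12, Mir669a-3 also has a 3p row of its own, miR-669a-3-3p. miR-466a-3p and miR-466e-3p, with 1 each, held 49.7% and 50.3%. The reads of the 3p arms of miR-297a, miR-297b and miR-297c did not divide so, at 50.7%, 23.6% and 25.7% with 4, 1 and 1 hairpins by name. Hairpins were matched to rows by name, whichever arm they give. Whether all 4 give miR-297a-3p was not tested, so no departure can be read from this group. The pair miR-467a-5p and miR-467b-5p, added after the counts were seen, held 90.4% and 9.60% with 10 and 1 hairpins.

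**Figure D4:**
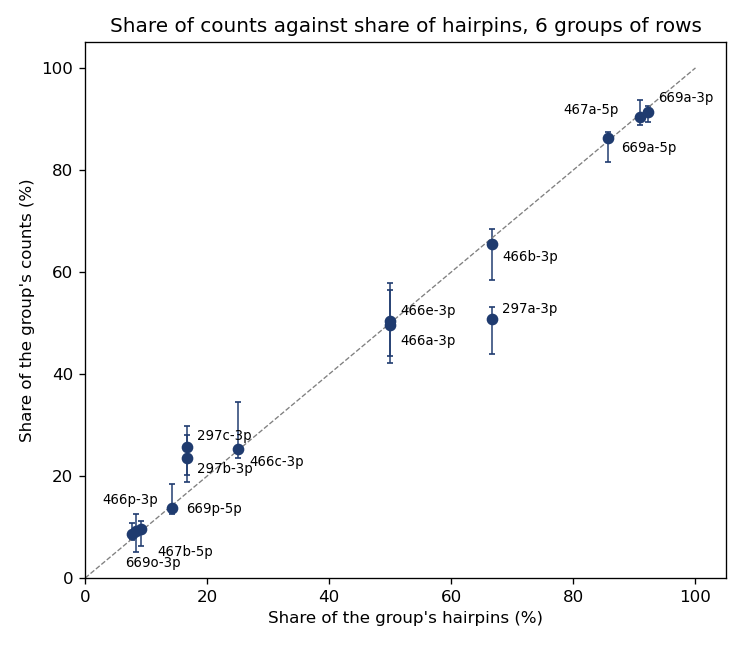
Share of a group's reads against share of its hairpins in GENCODE (both in %), for 5 groups of rows joined by the study's names and the pair miR-467a-5p and miR-467b-5p. Bars span the lowest and highest share over libraries with at least 50 reads in the group, and the dashed line marks equal shares. The miR-466 and miR-669 rows lie near the line and the miR-297 rows off it. Hairpins were counted by name, so the 4 for miR-297a-3p may be too many.

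The rows of a group are thus not independent measurements, and counts of members called and of names by arm include each of them. With every group summed to 1 row, 27 rows were tested. Of these, 20 were called lower at P14 than at P5, 9 lower and 2 higher at P90 than at P14, and 23 lower at P90 than at P1. The levels of miR-467e-5p, miR-669c-5p and miR-467d-5p, which come from 1 hairpin each and stand in no group, were not affected.

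Neighbouring hairpins differed in level and in course. Among the tested members with 1 hairpin, the most abundant at P1, miR-467e-5p, lay 135.3 kb from the start of Sfmbt2, and miR-467d-5p and miR-669c-5p lay 137.2 and 138.9 kb from it. Between them was miR-466a-3p at 137.5 kb, with 48, 78 and 52 reads at P1, a row that shares its reads with miR-466e-3p at 108.6 kb. P14 levels were 5.45-fold below P5 for miR-467e-5p and 2.35-fold below for miR-466a-3p, with miR-467d-5p, in the same few kilobases, at 1.04-fold. At the near end of the cluster, miR-669f, miR-669e-5p, miR-669b-5p and miR-669l-5p lay 96.8 to 98.5 kb from the start, and miR-467c-5p lay at 103.5 kb.

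**Figure D5:**
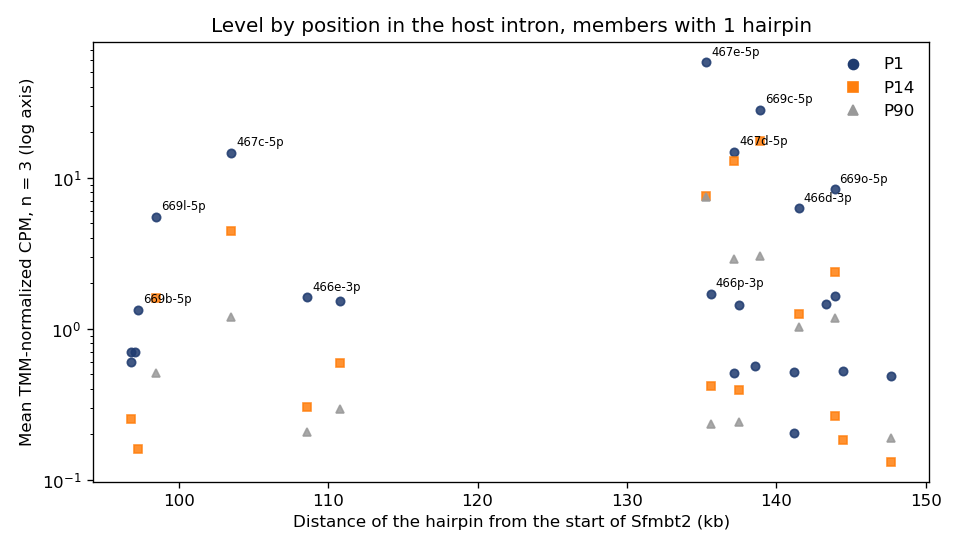
Mean TMM-normalized CPM at P1, P14 and P90 (log axis, n = 3) of the 23 tested members with 1 hairpin in Sfmbt2, against the distance of that hairpin from the start of the gene in kb. Ages with fewer than 10 reads over the 3 libraries have no symbol. Some rows drawn, such as miR-466a-3p and miR-466p-3p, share a mature sequence with other hairpins, so their level cannot be assigned to 1 position. The P1 and P14 symbols are at 14.9 and 13.0 for miR-467d-5p, at 28.2 and 17.6 for miR-669c-5p and at 58.2 and 7.60 for miR-467e-5p.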

How the data were processed

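The deposited table held raw counts per mature miRNA. Per the labels and methods, the authors trimmed reads with cutadapt 1.18 (10 to 35 nt kept), aligned them with Bowtie2 2.4.1 to GRCm38 and counted them with featureCounts 2.0.1 on miRBase 22. How reads that match several hairpins were placed, and whether strand was used, is not given in the sources used here. Counts were tested with edgeR 4.0.16 (R 4.3.3): filterByExpr over ages, TMM, 1 quasi-likelihood model over 12 libraries, Benjamini-Hochberg over 809 miRNAs, called at an adjusted p under 0.05. The procedure was tested on simulated data. DESeq2 1.42.0 and other settings were alternatives. Levels at or under 3 counts were treated as not detected, which covers counting error only. Hairpins and sequences came from RefSeq (GRCm38.p6, 8 members matched). Strand, intron and the hairpin shares of row groups came from GENCODE by gene name. Rows were matched to hairpins by name, whichever arm. Named members were the 5 highest of each family, the 2 with the smallest adjusted p per comparison and direction, and called members of opposite direction. Members and lists were chosen with earlier results of these data known. Replicate numbers did not pair libraries.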

Additional observations from a re-analysis of the deposited data

How the results depend on the processing

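The counts of members called across the ages, and of those called lower at P14 than at P5 and at P90 than at P1, stayed within 1.5 times under RLE factors, DESeq2, no filter on low counts, the GC trend removed and joined names summed. Requiring a mean of at least 10 CPM left 7 members to test, of which 7 were called across the ages, 4 at the P14 versus P5 step, 4 at the P90 versus P14 step and 7 over the whole interval from P1 to P90. With upper-quartile factors, 12 members were called over that interval, all lower, against 23.7% of all tested miRNAs. Library totals alone gave 2 for P5 versus P1 and 27 for P90 versus P14, where 4.57% and 77.6% of all tested miRNAs were called lower. Fits of only the 2 ages compared gave 5 and 3, against 6.67% and 30.5% called lower. Leaving out 1 library at a time gave 29 to 30 calls across the ages, 0 to 1 for P5 versus P1, 15 to 24 for P14 versus P5, 8 to 13 for P90 versus P14 and 27 to 31 for P90 versus P1.

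Replicate numbers were shared between ages, but over all 809 miRNAs tested, libraries with the same number did not deviate together (correlations from -0.221 to 0.158 over 18 pairs, 2 of them over 0.1). Of the 12 libraries, 3 were closest to their own number. A replicate block left 0 calls for P5 versus P1, also with the GC trend removed, where P14 versus P5 had 14. The block ended no P90 versus P1 call.

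For named members, the log2 fold change P90 versus P14 turned positive with upper-quartile factors for miR-467a-5p (0.29), miR-669a-3p (0.72), miR-669o-5p (0.58) and miR-669l-5p (0.0031), and with library totals it turned negative for miR-467a-3p (-1.01). The uncalled values near 0 changed sign most. For miR-467e-5p P90 versus P14, it was 0.32 with RLE factors, 1.495 with upper-quartile factors, 0.036 with no filter, 0.32 with the mean of at least 10 CPM, 0.32 with DESeq2, 0.17 with only the 2 ages, and -0.56 to 0.24 with 1 library left out. For miR-467d-5p P14 versus P5, it was 0.23 with upper-quartile factors, 0.22 with library totals, 0.055 with the mean of at least 10 CPM, 0.0012 with the replicate block and GC trend removed, and -0.17 to 0.12 with 1 library left out. Apart from the scaling and the smaller numbers tested or fitted, the cause was not tested. Identical mature sequences were summed by the study's joined names. P90 libraries held 443 to 547 member reads, which limits every adult value.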
